A study of Rattus norvegicus with 9 samples.

Results

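Spint1, Pdzk1ip1, Prr15l, Emp1, Ppp1r1b, Msln and A3galt2 are 7 genes linked to epithelia that were picked out of 40154 gene rows. They were chosen by their measured levels in the livers described here, because each was higher in PBS than in normal livers and lower in HepLPC than in PBS livers with a small spread. The differences of PBS against normal and of HepLPC against PBS livers are therefore given as descriptions, with no test.

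RNA was sequenced from whole livers of wild type Sprague-Dawley rats aged 5 months, with 3 libraries in each of 3 groups. HepLPC livers came from cirrhotic rats that were given liver progenitor-like cells derived from rat hepatocytes (HepLPCs). PBS livers came from cirrhotic rats given phosphate-buffered saline by injection, and normal livers from rats that had received neither carbon tetrachloride (CCl4, a liver toxin) nor cells. The labels do not say that the libraries of a group came from separate animals, so the spread between them may be partly technical. The labels mention no injection of the normal rats, so in comparisons with them CCl4 injury and injection cannot be told apart. Levels are given in RPKM as deposited, which are reads scaled to gene length and library depth.

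The liver holds hepatocytes, which form its plates, and cholangiocytes, the epithelial cells that line the bile ducts. In chronic injury, duct-like cells multiply at the portal tracts, a change called the ductular reaction, while stellate cells and portal fibroblasts turn into myofibroblasts that lay down scar. In whole tissue, fewer cells of a type and less RNA per cell cannot be told apart, so the cells that carried the reads of these genes were not identified here.

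Spint1 encodes HAI-1, a membrane-bound Kunitz inhibitor of serine proteases such as matriptase, hepsin and the activator of hepatocyte growth factor. Pdzk1ip1 encodes MAP17, a small membrane protein of kidney tubules that binds PDZ domain scaffolds and is needed for glucose uptake there in humans and mice. Emp1 encodes a tetraspan membrane protein related to the myelin protein PMP22. Ppp1r1b encodes DARPP-32, an inhibitor of protein phosphatase 1 when it is phosphorylated by protein kinase A, best known from striatal neurons. Msln encodes mesothelin, a lipid-anchored surface protein of mesothelial cells, which cover the organs, and in mice also of activated portal fibroblasts. A3galt2 encodes the glycosyltransferase that makes the glycolipid isogloboside iGb3, a role known from rat. Prr15l encodes a proline-rich protein, and no role is given for it here.

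The promoters are shown as the regulatory sequences of the chosen genes, whose shared group pattern is what they were picked for. RefSeq promoters of the rat assembly GRCr8 were matched for 4 of the 7 genes, each 300 bases long from 250 before to 50 after the annotated start, and all lie on the plus strand. They are chr3:126685031-126685330 for Spint1, chr4:169943980-169944279 for Emp1, chr5:133854822-133855121 for Pdzk1ip1 and chr5:146385562-146385861 for A3galt2. Capitals mark matches, on either strand, to the AP-1 motif TGANTCA, the TEAD motif GGAATG (found here on the minus strand, so printed as its reverse complement), the HNF1 motif GTTAAT and the ETS motif CGGAAG. No marked matches overlap.
Spint1: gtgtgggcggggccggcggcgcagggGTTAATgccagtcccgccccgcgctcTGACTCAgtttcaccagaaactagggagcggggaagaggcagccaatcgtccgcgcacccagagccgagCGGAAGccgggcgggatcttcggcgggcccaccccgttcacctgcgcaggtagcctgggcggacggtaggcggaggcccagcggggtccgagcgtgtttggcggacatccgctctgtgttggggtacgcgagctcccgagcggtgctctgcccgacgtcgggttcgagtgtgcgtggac
Emp1: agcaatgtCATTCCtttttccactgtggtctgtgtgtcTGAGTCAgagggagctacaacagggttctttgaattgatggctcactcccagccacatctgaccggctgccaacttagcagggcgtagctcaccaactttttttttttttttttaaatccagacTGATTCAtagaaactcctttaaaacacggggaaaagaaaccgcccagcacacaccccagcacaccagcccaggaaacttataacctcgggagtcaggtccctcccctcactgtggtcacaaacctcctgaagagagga
Pdzk1ip1: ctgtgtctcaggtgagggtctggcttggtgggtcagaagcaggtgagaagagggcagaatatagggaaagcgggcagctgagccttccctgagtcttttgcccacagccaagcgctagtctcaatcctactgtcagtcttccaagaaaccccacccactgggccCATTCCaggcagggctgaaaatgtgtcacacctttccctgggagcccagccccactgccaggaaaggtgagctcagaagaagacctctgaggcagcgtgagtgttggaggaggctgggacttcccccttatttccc
A3galt2: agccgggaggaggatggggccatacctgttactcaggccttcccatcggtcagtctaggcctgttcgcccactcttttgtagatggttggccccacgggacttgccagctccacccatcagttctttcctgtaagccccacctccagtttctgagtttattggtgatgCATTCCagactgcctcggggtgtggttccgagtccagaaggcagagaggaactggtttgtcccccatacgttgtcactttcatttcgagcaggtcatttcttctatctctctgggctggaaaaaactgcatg

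The TEAD motif was in 3 of the 4 promoters (Emp1, Pdzk1ip1 and A3galt2), against 14.2% of all 33469 rat promoters of the same length. The AP-1 motif was in 2 of the 4, Spint1 and Emp1, against 7.33% of all promoters, and Emp1 held it at 2 positions. Spint1 alone of the 4 held the HNF1 and ETS motifs, which were in 7.45% and 16.6% of all promoters. The Grainyhead motif ACCGGTT, the SOX motif ACAAAG and the TATA box TATAAA were in 0 of the 4, against 0.974%, 18.8% and 14.2% of all promoters. The Spint1 promoter was rich in G and C, at 70.3% against a median of 51.7% over all promoters, while that of Emp1 stood at 48.7%. Such matches describe letters in a window of 300 bases and say nothing of which factors bind there. No motif was found in all 4 promoters.

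Whole reads could be recovered from the RPKM values, and depth ranged from 17.4 to 21.8 M reads per library. PBS replicate 1 and HepLPC replicate 2 stood apart from the other libraries, because longer genes deviated lower from the group mean there (Spearman correlation across genes -0.564 and -0.528, against -0.157 to 0.423 in the other 7). Over the 11124 genes that reached 1 RPKM in 3 or more libraries, the median difference in log2(RPKM + 1) was 0.18 in PBS against normal livers, -0.14 for HepLPC against PBS livers and 0.05 for HepLPC against normal livers. All 7 genes passed that minimum, but 6 of them did so only through the 3 PBS libraries, and Emp1 alone reached 1 RPKM in all 9.

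All 7 genes were low in HepLPC livers, high in PBS livers and lowest on average in normal livers. The lowest PBS library lay above every HepLPC and normal library for 7 of 7 genes, a pattern that 13.1% of all genes showed and that the choice of the genes had made likely. The fold of PBS over normal means ran between 7.56 (Emp1) and 86.7 (Prr15l), and HepLPC livers kept between 4.21% (Msln) and 21.2% (Emp1) of the PBS mean. Over all tested genes limma called 10.4% higher and 0.944% lower in PBS than in normal livers, and 2.93% lower and 0.135% higher in HepLPC than in PBS livers (Benjamini-Hochberg adjusted p under 0.05). Both the first and the third call held for 2.84% (316 genes). The split for PBS against normal livers was 1157 higher and 105 lower genes, and 512 and 275 after rescaling by the median of ratios. Nothing is read from the members' place in those calls, which is how they were found.

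The difference of HepLPC against PBS livers in mean log2(RPKM + 1) ran between -0.99 for A3galt2 and -2.38 for Msln. It depends on the pseudocount: with 0.1 added in place of 1, it was -2.998 for Spint1, -2.65 for Pdzk1ip1, -2.62 for Prr15l, -2.21 for Emp1, -2.66 for Ppp1r1b, -4.0005 for Msln and -2.33 for A3galt2. Without the libraries that stood apart, PBS replicate 1 and HepLPC replicate 2, it was -1.85 for Spint1, -1.59 for Pdzk1ip1, -1.25 for Prr15l and -1.75 for Emp1, against -1.77, -1.62, -1.26 and -1.81 with all 9 libraries. For Ppp1r1b it was -1.63 without them and -1.46 with them, for Msln -2.68 and -2.38, and for A3galt2 -1.11 and -0.99. The HepLPC against normal difference without them was between 0.04 (A3galt2) and 0.56 (Emp1).

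**Figure D1:**
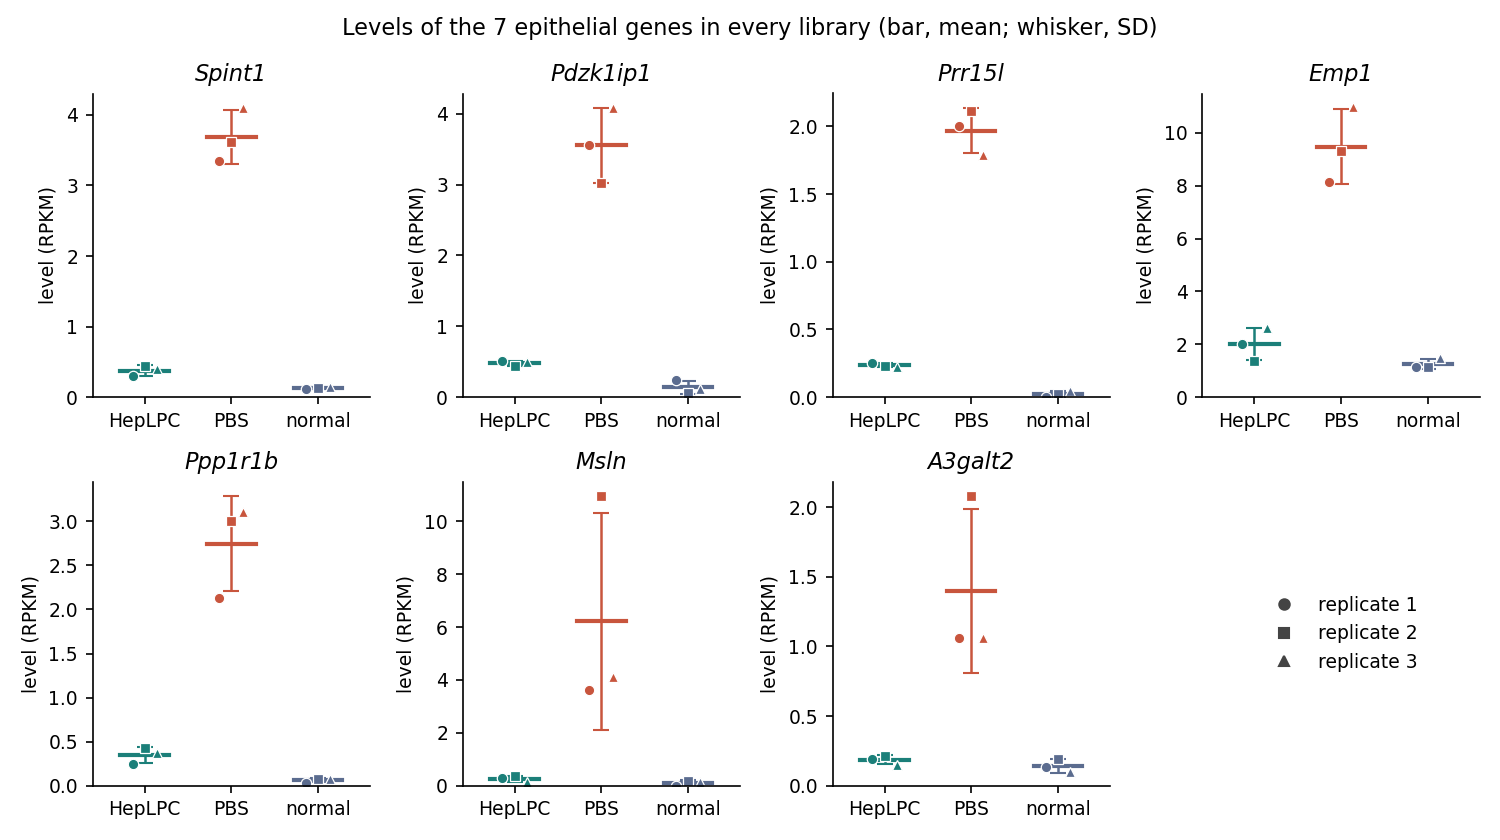
Levels of the 7 genes in RPKM (linear axes starting at 0) in each of 3 HepLPC, 3 PBS and 3 normal libraries. Points are libraries, marked by replicate number, bars are group means and whiskers are SD. The PBS points lie above all others in each panel, and PBS replicate 2 stands far above the other PBS libraries for Msln and A3galt2.

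Spint1 was at 0.294, 0.440 and 0.396 RPKM in HepLPC livers, at 3.34, 3.62 and 4.10 RPKM in PBS livers and at 0.122, 0.130 and 0.151 RPKM in normal livers. The 3 groups did not overlap, with HepLPC between the others. These levels stand on 14, 21 and 17 reads in HepLPC libraries, 147, 184 and 200 in PBS libraries and 6, 7 and 8 in normal libraries. The means were 0.376 ± 0.0750 RPKM in HepLPC, 3.69 ± 0.386 RPKM in PBS and 0.134 ± 0.0150 RPKM in normal livers (SD, n = 3 each), and HepLPC livers kept 10.2% of the PBS mean.

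Spint1 acts in a circuit of proteases, inhibitors and growth factors, of which 11 of 14 listed genes could be tested. Of these 3 were called higher in PBS than in normal livers and 1 lower in HepLPC than in PBS livers. St14, which encodes matriptase, was at 0.965 ± 0.126 RPKM in HepLPC, 3.20 ± 1.72 RPKM in PBS and 0.471 ± 0.0552 RPKM in normal livers. It was higher in PBS than in normal livers (log2 difference 1.44, limma, Benjamini-Hochberg adjusted p = 0.0047), while HepLPC against PBS gave -1.03 with adjusted p = 0.0502. Prss8, which encodes prostasin, a protease that works with matriptase, rose in PBS against normal livers (1.80, adjusted p = 0.00132) and fell in HepLPC against PBS livers (-1.33, adjusted p = 0.0167), and the second call was lost in 5 of 17 alternatives.

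Further partners of HAI-1 stood at high levels in all groups. Spint2, encoding the related inhibitor HAI-2, averaged 103 ± 17.5 RPKM in HepLPC, 107 ± 3.60 RPKM in PBS and 96.3 ± 3.999 RPKM in normal livers. Hpn, the protease hepsin, averaged 122 ± 9.97 RPKM in HepLPC, 130 ± 12.2 RPKM in PBS and 127 ± 5.47 RPKM in normal livers. Hgfac, the activator of hepatocyte growth factor, averaged 87.5 ± 9.72, 88.4 ± 7.75 and 94.7 ± 7.04 RPKM in HepLPC, PBS and normal livers. Neither Spint2, Hpn nor Hgfac passed in HepLPC against PBS (adjusted p = 0.820, 0.740 and 0.959) or in PBS against normal (0.525, 0.899 and 0.661), and a p that misses the threshold does not show equal levels. Without PBS replicate 1 and HepLPC replicate 2, the count of the circuit's genes higher in PBS was 6, and 0 were lower in HepLPC than in PBS livers.

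Pdzk1ip1 was at 0.505, 0.442 and 0.491 RPKM in HepLPC livers, at 3.56, 3.02 and 4.08 RPKM in PBS livers and at 0.245, 0.0560 and 0.114 RPKM in normal livers. The groups did not overlap, and the 3 HepLPC libraries were close to each other. The gene model is the shortest of the 7, at 819 bases. The HepLPC values rest on 8, 7 and 7 reads and the normal values on 4, 1 and 2 reads. At such counts nothing is read from the closeness of the HepLPC libraries. The means were 0.479 ± 0.0335 RPKM in HepLPC, 3.55 ± 0.530 RPKM in PBS and 0.138 ± 0.0968 RPKM in normal livers, with 13.5% of the PBS mean left in HepLPC livers.

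Among the scaffolds and transporters known to work with MAP17, 8 of 11 listed genes were tested, 2 were called higher in PBS than in normal livers and 1 was called lower in HepLPC than in PBS livers. That gene was Slc5a1, an intestinal sodium-glucose transporter, at 0.390 ± 0.129 RPKM in HepLPC, 2.23 ± 0.969 RPKM in PBS and 0.186 ± 0.142 RPKM in normal livers. It rose in PBS (1.40, limma adjusted p = 0.00458) and fell in HepLPC against PBS livers (-1.17, adjusted p = 0.0279), a call lost in 11 of 17 alternatives. Slc5a1 passed the minimum only through the PBS libraries. Pdzk1, the PDZ scaffold that gave the gene its name, averaged 20.4 ± 3.88, 17.5 ± 1.88 and 19.8 ± 3.96 RPKM in HepLPC, PBS and normal livers. Scarb1, the receptor for high-density lipoprotein that binds Pdzk1, averaged 21.5 ± 2.82, 27.6 ± 3.998 and 24.9 ± 3.67 RPKM in the same order, and neither gene passed in HepLPC against PBS (adjusted p = 0.615 and 0.327). Slc5a2, the other sodium-glucose transporter of the list, averaged 1.64 ± 0.186, 1.70 ± 0.326 and 1.69 ± 0.464 RPKM in HepLPC, PBS and normal livers. It was not called in HepLPC against PBS or PBS against normal livers (limma adjusted p = 0.929 and 0.967). The count of 2 higher in PBS was 1 after rescaling by the median of ratios and 4 without PBS replicate 1 and HepLPC replicate 2.

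Prr15l was at 0.254, 0.228 and 0.225 RPKM in HepLPC livers, at 2.01, 2.12 and 1.79 RPKM in PBS livers and at 0, 0.0225 and 0.0457 RPKM in normal livers. The 3 groups did not overlap and the libraries of each group lay close together. The normal level rests on 0, 1 and 2 reads, against 10, 9 and 8 in HepLPC and 73, 89 and 72 in PBS libraries, so the ratio of PBS over normal, 84.7 from pooled reads, has a counting interval of 28.6 to 414. The pooled ratio of HepLPC over normal was 10.1, with an interval of 3.12 to 52.2 (exact, 95%, counting error only). The relative Prr15 averaged 0.265 ± 0.0402 RPKM in HepLPC, 0.833 ± 0.344 RPKM in PBS and 0.0996 ± 0.0294 RPKM in normal livers and was below the minimum for a test.

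Emp1 was the most abundant of the 7, at 2.03, 1.39 and 2.62 RPKM in HepLPC livers, 8.15, 9.30 and 10.99 RPKM in PBS livers and 1.15, 1.15 and 1.47 RPKM in normal livers. PBS libraries stood apart from all others, while the lowest HepLPC library lay below the highest normal one. The means were 2.01 ± 0.619, 9.48 ± 1.43 and 1.25 ± 0.186 RPKM in HepLPC, PBS and normal livers. Its fold over normal was the smallest of the 7 and its share of the PBS mean left in HepLPC livers the largest.

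In the family of Emp1, 7 of 9 listed genes were tested, 2 rose in PBS against normal livers and 1 fell in HepLPC against PBS livers. Pmp22, a growth arrest gene of many tissues and a myelin protein in nerve, was at 1.28 ± 0.157 RPKM in HepLPC, 4.22 ± 0.677 RPKM in PBS and 0.683 ± 0.0686 RPKM in normal livers. It rose by 1.62 in PBS against normal livers and fell by 1.19 in HepLPC against PBS livers (log2 scale, limma adjusted p = 0.000258 and 0.00382), and both calls held in 17 of 17 alternatives. Emp3 rose in PBS against normal livers (1.01, limma adjusted p = 0.0119, lost in 3 of 17 alternatives, which leaves 1 of the family after rescaling or quantile normalization), but HepLPC against PBS gave -0.36 (adjusted p = 0.414). Emp2 was below the minimum for a test, at 0.696 ± 0.0365, 1.58 ± 0.533 and 0.566 ± 0.160 RPKM in HepLPC, PBS and normal livers.

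Ppp1r1b was at 0.250, 0.427 and 0.376 RPKM in HepLPC livers, at 2.13, 3.01 and 3.10 RPKM in PBS livers and at 0.0346, 0.0790 and 0.0802 RPKM in normal livers. The groups did not overlap, and PBS replicate 1 was the lowest of its group. These are 14, 24 and 19 reads in HepLPC, 110, 180 and 178 in PBS and 2, 5 and 5 in normal libraries. The means were 0.351 ± 0.0914, 2.75 ± 0.539 and 0.0646 ± 0.0260 RPKM in HepLPC, PBS and normal livers.

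Genes around DARPP-32 were not called. Of 19 listed genes of protein phosphatase 1, its inhibitors and the kinases and phosphatases that act on DARPP-32, 14 were tested and 0 were called in any of the 3 comparisons by limma, while 2 were higher in PBS than in normal livers and 1 lower in HepLPC than in PBS livers and 1 lower in HepLPC than in normal livers at an unadjusted p under 0.05. Ppp1ca, the alpha catalytic subunit of the phosphatase, averaged 61.2 ± 6.24, 74.3 ± 3.38 and 57.8 ± 2.07 RPKM in HepLPC, PBS and normal livers (adjusted p = 0.273 for HepLPC against PBS). Ppp1r1a, the related inhibitor 1 of the phosphatase, was listed at 0 in all 9 libraries. Without PBS replicate 1 and HepLPC replicate 2, 3 of the 14 were called higher in PBS than in normal livers.

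Msln was at 0.304, 0.351 and 0.130 RPKM in HepLPC livers, at 3.60, 10.9 and 4.10 RPKM in PBS livers and at 0, 0.187 and 0.126 RPKM in normal livers. PBS replicate 2 was far above the other PBS libraries, and HepLPC and normal libraries overlapped. The reads were 13, 15 and 5 in HepLPC, 142, 499 and 179 in PBS and 0, 9 and 6 in normal libraries. The mean was 0.262 ± 0.116 RPKM in HepLPC, 6.22 ± 4.10 RPKM in PBS and 0.104 ± 0.0953 RPKM in normal livers. Without PBS replicate 2 the PBS mean was 3.85 RPKM, and the share left in HepLPC livers was 6.79% instead of 4.21%.

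Of 9 listed partners of mesothelin 5 were tested, and Anxa1 alone was called, an annexin also found in many cell types. It rose by 1.75 in PBS against normal livers and fell by 1.34 in HepLPC against PBS livers (limma adjusted p = 0.000281 and 0.00414), in 17 of 17 alternatives. Muc16, the mucin that binds mesothelin, was at 0 in all HepLPC and normal libraries and at 0.0226 ± 0.0343 RPKM in PBS livers.

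A3galt2 was at 0.190, 0.216 and 0.150 RPKM in HepLPC livers, at 1.06, 2.08 and 1.06 RPKM in PBS livers and at 0.131, 0.192 and 0.0975 RPKM in normal livers. PBS replicate 2 was again the highest library, and HepLPC and normal libraries overlapped. The reads were 7, 8 and 5 in HepLPC, 36, 82 and 40 in PBS and 5, 8 and 4 in normal libraries. Without PBS replicate 2 the PBS mean was 1.06 RPKM in place of 1.40 ± 0.590 RPKM.

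In the synthesis of neutral glycosphingolipids and alpha-galactose groups, 7 of 15 listed genes were tested, 2 rose and 1 fell in PBS against normal livers, and 1 fell in HepLPC against PBS livers. The gene that fell in HepLPC livers was B4galt5, a lactosylceramide synthase that acts ahead of A3galt2, at 2.51 ± 0.315 RPKM in HepLPC, 6.19 ± 1.39 RPKM in PBS and 2.13 ± 0.598 RPKM in normal livers. Its difference was 1.199 in PBS against normal livers and -1.02 in HepLPC against PBS livers (limma adjusted p = 0.00381 and 0.0219), and the second call was lost in 5 of 17 alternatives. Ggta1, the relative of A3galt2 that adds alpha-galactose to glycoproteins, averaged 0.853 ± 0.0823, 1.24 ± 0.244 and 0.980 ± 0.142 RPKM in HepLPC, PBS and normal livers (adjusted p = 0.343 for HepLPC against PBS).

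The comparison of HepLPC with normal livers was not used to choose the genes, but it uses the same libraries and is the sum of the other differences, so it is not independent of them. The HepLPC mean lay above the normal mean for 7 of 7 genes, while 87.7% of the 316 genes called both ways did the same. All 3 HepLPC libraries lay above all 3 normal libraries for 4 of 7 genes, Spint1, Pdzk1ip1, Prr15l and Ppp1r1b, against 12.3% of all genes and 50.9% of those 316. By limma 0 of the 7 passed the threshold of adjusted p (Benjamini-Hochberg), where 0.0449% of all genes were called higher and 0.036% lower. At an unadjusted p under 0.05 there were 5 of 7, against 7.34% of all genes higher at that level. The SE of this test rests on the within-group spread, and a small spread was among the values that chose the genes. The count of 5 is thus in part set by the choice, and nothing is read from it.

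The difference in log2(RPKM + 1) was 0.40 for Emp1 (SE 0.17, limma adjusted p = 0.533), 0.38 for Pdzk1ip1 (SE 0.13, adjusted p = 0.395) and 0.34 for Ppp1r1b (SE 0.14, adjusted p = 0.509). It was 0.28 for Spint1 (SE 0.12, adjusted p = 0.526) and 0.27 for Prr15l (SE 0.11, adjusted p = 0.506). For Msln and A3galt2 it was 0.19 (SE 0.31, adjusted p = 0.894) and 0.06 (SE 0.17, adjusted p = 0.945), with 95% intervals of -0.51 to 0.89 and -0.32 to 0.43. The order of the genes depends on the pseudocount: with 0.1 added in place of 1, the difference was 1.47 for Prr15l, 1.45 for Ppp1r1b, 1.36 for Pdzk1ip1, 1.01 for Spint1, 0.90 for Msln, 0.61 for Emp1 and 0.26 for A3galt2, with limma adjusted p between 0.156 and 0.876. In pooled reads the ratio of HepLPC over normal was 5.35 (2.84 to 10.96) for Ppp1r1b, 3.54 (1.46 to 9.82) for Pdzk1ip1 and 2.79 (1.65 to 4.88) for Spint1. It was 2.48 (1.31 to 4.91) for Msln, 1.58 (1.33 to 1.89) for Emp1 and 1.33 (0.660 to 2.69) for A3galt2, where the exact 95% intervals cover counting error only.

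**Figure D2:**
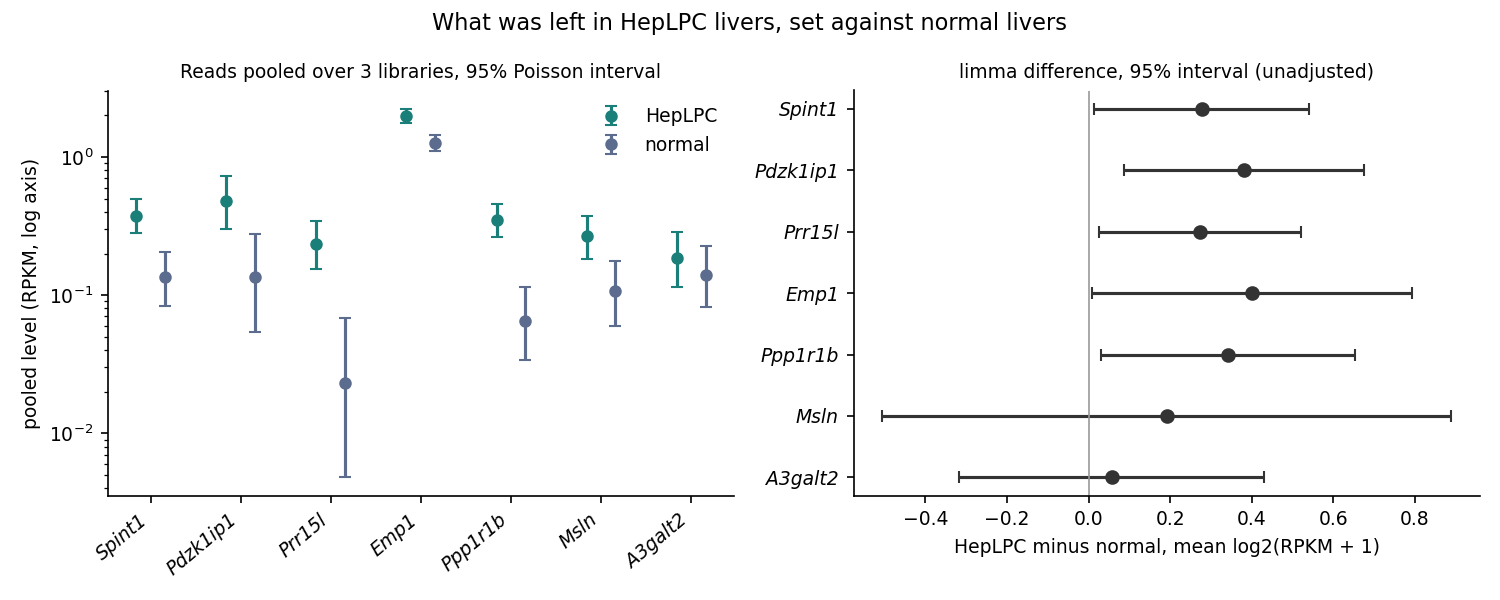
Levels left in HepLPC livers set against normal livers. Left, pooled RPKM over 3 libraries per group on a log axis with exact 95% Poisson intervals, which lay above normal without overlap for 6 of the 7 genes, against 32.4% of all tested genes and 63.3% of the 316 called both ways. The intervals cover counting error only. Right, the limma difference of HepLPC minus normal in mean log2(RPKM + 1) with its unadjusted 95% interval, which lay above 0 for 5 genes and spanned 0 for Msln and A3galt2. The width of these intervals is in part set by the choice of genes with a small spread.

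A small spread was among the values that chose the genes, and it is given only as a check of that description. The within-group SD of log2(RPKM + 1) was 0.05 for Prr15l, the smallest of the 316, and 0.08 for Spint1, 0.12 for Pdzk1ip1 and 0.14 for Ppp1r1b. It was 0.20 for A3galt2, 0.22 for Emp1 and 0.45 for Msln, against a median of 0.21 over the 316 genes. A3galt2, Emp1 and Msln were thus not among the tight ones, with A3galt2 just under that median. A low gene has a small SD on this scale in part because 1 is added to its RPKM before the logarithm.

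Across the 9 libraries the genes followed each other closely, with Pearson r of 0.906 to 0.997 over the 21 pairs (median 0.978), as genes chosen for 1 group pattern must. Once the group means were taken out, r over the same 9 libraries ran between -0.825 and 0.977 with a median of -0.03. Msln and A3galt2 deviated together (r = 0.98), as did Spint1 and Ppp1r1b (0.86), while Pdzk1ip1 and Prr15l went opposite ways (-0.83). These values share libraries, depth and few degrees of freedom and are descriptions. Pdzk1ip1 and Prr15l have few reads in HepLPC and normal libraries, so counting error may make up much of their deviations.

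The spread among PBS livers separated the 7 genes. In PBS replicate 2, Msln lay 0.87 and A3galt2 0.39 above the PBS mean of log2(RPKM + 1), while Spint1 lay at -0.02 and Pdzk1ip1 at -0.17. The mean of the 14 tested duct markers lay at -0.50, 0.49 and 0.01 in PBS replicates 1, 2 and 3, and that of the stellate and myofibroblast markers at -0.28, 0.22 and 0.05. Prr15l moved little, at 0.02, 0.07 and -0.09.

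**Figure D3:**
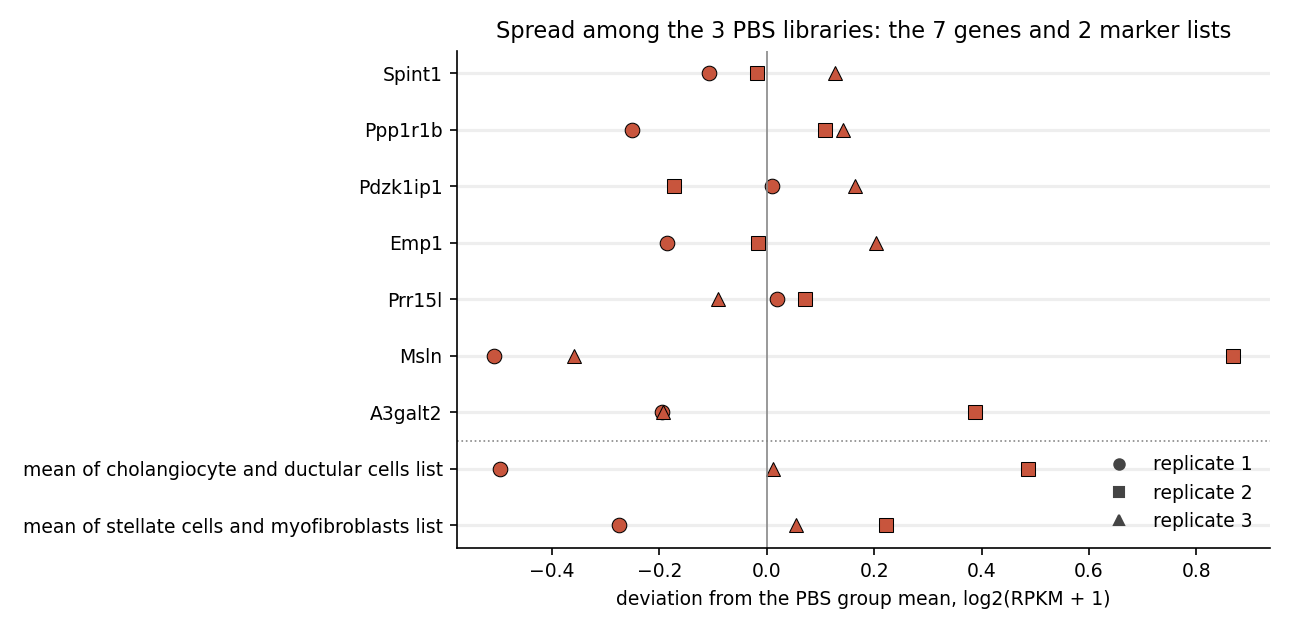
Deviation of each PBS library from the PBS mean in log2(RPKM + 1) for the 7 genes and for the means of 2 marker lists. Msln and A3galt2 show PBS replicate 2 to the right, as does the duct marker mean, while Pdzk1ip1 has that library lowest.

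Of the 14 tested duct markers 11 were highest in PBS replicate 2 among the PBS libraries and 3 in replicate 3. That lean was not particular to duct markers. PBS replicate 2 was also highest for 9 of 14 stellate and myofibroblast markers, 8 of 11 genes of the HAI-1 circuit and 10 of 15 junction and apical genes. It was highest for 5 of 13 hepatocyte, 5 of 11 macrophage and 4 of 10 endothelial markers, and the share over all genes was not counted. Krt19, a keratin of bile duct cells, was at 1.61, 1.27 and 2.41 RPKM in HepLPC, 5.53, 31.3 and 10.9 RPKM in PBS and 0.327, 0.898 and 0.709 RPKM in normal livers. Rab25, a small GTPase of apical recycling in epithelia, was at 0.143, 0.0478 and 0.0531 RPKM in HepLPC, 1.24, 2.33 and 1.54 RPKM in PBS and 0.0927, 0.127 and 0.0861 RPKM in normal livers. Both were highest in PBS replicate 2, although Rab25 belongs to the junction and apical list. Ggt1, a duct marker and a glutathione-degrading enzyme, was lowest there, at 12.3, 5.77 and 16.997 RPKM in PBS livers.

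Markers of bile duct cells were high in PBS livers and lower in HepLPC livers. Of 17 listed cholangiocyte and ductular genes 14 were tested, 12 rose in PBS against normal livers and 11 fell in HepLPC against PBS livers (limma, adjusted p under 0.05), with median log2 differences of 1.66 and -1.39 against 0.18 and -0.14 over all genes. The median share of the PBS mean left in HepLPC livers was 12.4% over these 14 (5.26% to 70.8%) and 12.8% over the 7 genes, which were chosen for a low value of it, so that the likeness supports nothing. Of the 14 duct markers 5 passed the minimum only through the PBS libraries (Sox9, Cftr, Cldn4, Cldn7 and Prom1). The summed level of the list was 26.4 to 64.3 RPKM in HepLPC, 102 to 265 RPKM in PBS and 36.4 to 48.4 RPKM in normal livers. The count of 11 was 8 after rescaling and 4 in a fit of HepLPC and PBS livers alone.

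Sox9, a transcription factor of duct cells, was at 0.300 ± 0.0881 RPKM in HepLPC, 2.51 ± 0.540 RPKM in PBS and 0.0747 ± 0.0355 RPKM in normal livers, with a difference of -1.42 for HepLPC against PBS (limma adjusted p = 0.00197). Epcam, an adhesion molecule of duct cells, was at 8.81 ± 2.59, 28.2 ± 8.13 and 7.60 ± 1.06 RPKM in HepLPC, PBS and normal livers (-1.57, adjusted p = 0.0109). Cd24, a surface protein of duct and progenitor cells, fell by 2.84 (adjusted p = 0.00578), Ggt1 by 2.48 (adjusted p = 0.00435) and Prom1, a marker of progenitor cells, by 1.18 (adjusted p = 0.00452). These calls, except that of Epcam (lost in 3 of 17), held in all 17 alternatives, while the fall of Krt19 (-2.32, adjusted p = 0.0346) was lost in 11 of 17. Sox9 and Prom1 passed the minimum only through the PBS libraries, so their calls are in part set by the filter. The part of duct cell number in the levels of the 7 genes was not tested.

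**Figure D4:**
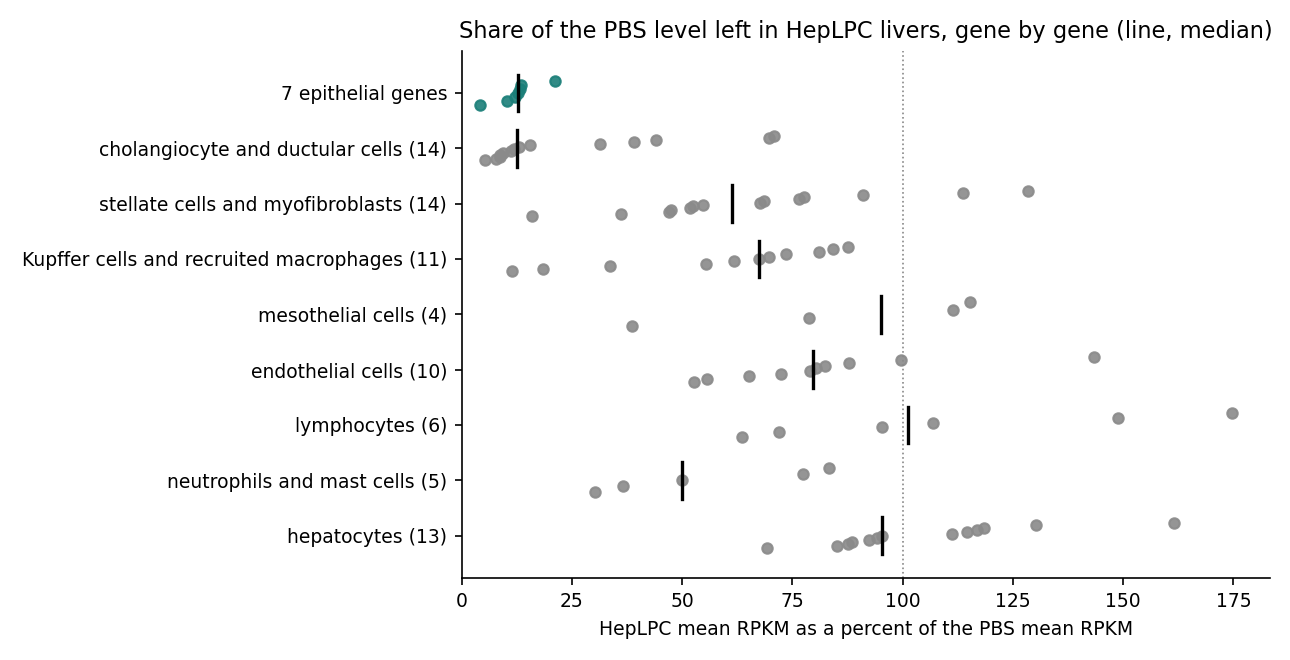
HepLPC mean RPKM as a percent of the PBS mean RPKM, gene by gene, for the 7 genes and for the tested genes of 8 cell type marker lists (number of genes in brackets). Black lines are medians, and the dotted line marks equal means. The medians are 12.8% for the 7 genes, which were chosen for a low share, 12.4% for the duct list and 95.2% for the hepatocyte list.

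In the other cell type lists fewer genes were called. Of 14 tested stellate cell and myofibroblast markers 8 rose in PBS against normal livers and 2 fell in HepLPC against PBS livers, Col1a1 (-1.88, limma adjusted p = 0.016, lost in 3 of 17 alternatives) and Col3a1 (-0.92, adjusted p = 0.0468, lost in 14 of 17 alternatives), both chains of scar collagens. The count of 2 was 0 in a fit of HepLPC and PBS livers alone. A median of 61.2% of the PBS mean was left in HepLPC livers over this list, whose sum was 311 to 367 RPKM in HepLPC, 340 to 392 RPKM in PBS and 309 to 363 RPKM in normal livers. The largest part of that sum was Dpt, at 205, 180 and 249 RPKM on average in HepLPC, PBS and normal livers. Dpt was thus lowest in PBS livers, so the sum says little of the other genes of the list. The count of 8 ran between 4 after quantile normalization and 11 without PBS replicate 1 and HepLPC replicate 2. Of 11 tested macrophage markers 3 rose and the same number fell: Gpnmb and Trem2, of scar-associated macrophages, and Lyz2, a lysozyme. They fell by 1.45, 1.24 and 2.27 in HepLPC against PBS livers (limma adjusted p = 0.00472, 0.00942 and 0.00492). Trem2 passed the minimum only through the PBS libraries, and its fall was lost in 1 of 17 alternatives. The macrophage list summed to 160 to 231 RPKM in HepLPC, 284 to 388 RPKM in PBS and 141 to 183 RPKM in normal livers. Much of that difference came from Lyz2, at 20.1, 109 and 17.6 RPKM on average in HepLPC, PBS and normal livers.

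Of 13 hepatocyte markers 0 were called in any comparison by limma (1 higher and 1 lower in PBS against normal, 1 higher in HepLPC against PBS and 1 lower in HepLPC against normal, at an unadjusted p under 0.05), and their sum stayed between 81054 and 104570 RPKM in the 9 libraries. Endothelial markers had 1 of 10 higher in PBS, Vwf, a clotting factor of large vessels (0.89, limma adjusted p = 0.0218), and 0 lower in HepLPC livers. Lymphocyte markers had 1 of 6 higher in PBS, the plasma cell gene Jchain, and the neutrophil and mast cell list had 3 of 5, S100a9, Cpa3 and Mcpt2, with 0 lower in HepLPC livers in either list. The S100a9 call was lost in 12 of 17 alternatives and those of Vwf and Jchain in 4 of 17 each, and the count of 3 was 2 after rescaling or quantile normalization. Mcpt2, a mast cell protease, was also called higher in HepLPC than in normal livers (2.75, limma adjusted p = 0.0464), at 14.9 ± 6.40 RPKM in HepLPC and 1.29 ± 0.655 RPKM in normal livers. That call was lost with no filter, after quantile normalization and with a replicate block, where 0 genes were called higher in HepLPC than in normal livers. The same held without HepLPC replicate 3 and without normal replicate 3. At an unadjusted p under 0.05, 3 endothelial, 1 lymphocyte and 3 neutrophil and mast cell genes were lower in HepLPC than in PBS livers.

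Mesothelial markers bear on Msln. Of 13 listed genes 4 reached the minimum, and 1 was called higher in PBS than in normal livers, Podxl, a sialomucin also of vessels (0.84, limma adjusted p = 0.0233, lost in 7 of 17 alternatives), and 0 fell in HepLPC against PBS livers, 1 of them at an unadjusted p under 0.05. Upk3b, a uroplakin that defines mesothelium, was at 0.262, 0 and 0 RPKM in HepLPC, 0.567, 0.531 and 0.896 RPKM in PBS and 0.0846, 0.0387 and 0 RPKM in normal livers, with PBS replicate 3 highest. The mean of the 4 tested mesothelial markers lay at 0.06, 0.19 and -0.25 from its PBS mean in replicates 1, 2 and 3, where Msln lay at -0.51, 0.87 and -0.36. That mean holds only Lrrn4, Gpm6a, Dpp4 and Podxl, and Gpm6a ran between 0.490 and 8.75 RPKM in PBS livers. Upk3b and the other listed genes below the minimum are not part of it. Wt1, a transcription factor of mesothelium, averaged 0.0419 ± 0.0313, 0.106 ± 0.0391 and 0.0328 ± 0.0172 RPKM in HepLPC, PBS and normal livers. Calb2 and Krt5 were listed at 0 in all 9 libraries. Other listed genes below the minimum were highest on average in PBS livers. In HepLPC, PBS and normal livers Itln1 averaged 0.0140, 1.28 and 0 RPKM and Rspo1 0.154, 0.723 and 0.110 RPKM. Upk1b averaged 0.00870, 0.185 and 0.00772 RPKM in the same order. The PBS libraries were uneven, between 0.0412 and 3.75 RPKM for Itln1, 0.339 and 1.23 RPKM for Rspo1 and 0 and 0.409 RPKM for Upk1b. The tested Lrrn4 and Gpm6a did not have their highest mean in PBS livers, at 2.90, 2.52 and 1.99 RPKM and 6.17, 5.54 and 5.09 RPKM. The list's sum was 32.8 to 67.2 RPKM in HepLPC, 53.8 to 74.2 RPKM in PBS and 47.3 to 56.3 RPKM in normal livers, most of it from Dpp4, which hepatocytes also express. The part of mesothelial cells in the level of Msln was not tested.

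**Figure D5:**
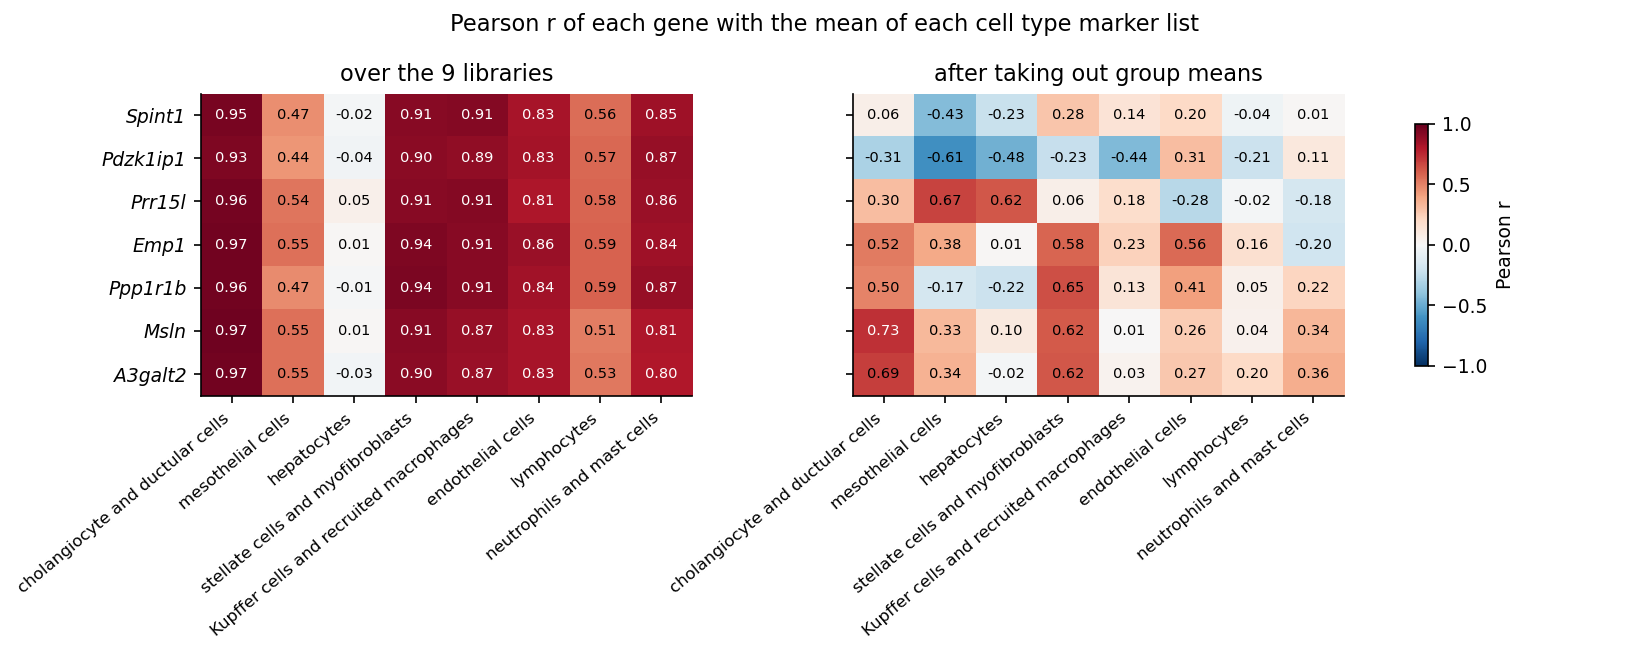
Pearson r of each gene with the mean log2(RPKM + 1) of each marker list over the 9 libraries (left) and after group means were taken out (right), as descriptions. On the left the duct list gives 0.93 to 0.97 and the hepatocyte list -0.04 to 0.05, and on the right the values with the duct list run between -0.31 (Pdzk1ip1) and 0.73 (Msln).

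Over the 9 libraries r with the duct marker mean was 0.93 to 0.97, with stellate markers 0.90 to 0.94, with macrophage markers 0.87 to 0.91 and with mesothelial markers 0.44 to 0.55. The group pattern sets these values, so they do not tell the duct, stellate and macrophage lists apart. The mesothelial mean rests on Lrrn4, Gpm6a, Dpp4 and Podxl alone. Its lower r therefore does not speak for Upk3b, Wt1 or the other mesothelial genes below the minimum. After group means were taken out, r with the duct mean was 0.73 for Msln, 0.69 for A3galt2, 0.52 for Emp1 and 0.50 for Ppp1r1b, and 0.06 for Spint1 and -0.31 for Pdzk1ip1. With the stellate mean it was 0.62 for Msln, 0.62 for A3galt2, 0.58 for Emp1 and 0.65 for Ppp1r1b. Prr15l had r = 0.67 with mesothelial, 0.62 with hepatocyte and 0.30 with duct markers. Its deviations rest on 10, 9 and 8 reads in HepLPC, 73, 89 and 72 in PBS and 0, 1 and 2 in normal libraries. Counting error may thus make up much of them. The values of r given here do not single out the duct list.

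The genes whose levels were most like each member over the 9 libraries, by Pearson r on log2(RPKM + 1), came from several cell types. For Spint1 they were Sox9, Cygb (cytoglobin, of stellate cells) and Gpx3 (a secreted glutathione peroxidase), each at r = 0.990. For Ppp1r1b they were Sox9 (0.995), Cygb (0.993) and Loxl1, a matrix crosslinking enzyme (0.993). For Emp1 they were the matrix genes Smoc2 (0.993), Fbln1 (0.992) and Adamtsl2 (0.990). For Pdzk1ip1 they were the glycolytic enzyme Aldoa (0.993), Serinc2 (0.992) and Pmp22 (0.991), and for Prr15l Serinc2 (0.991), Gpx3 (0.987) and Prdm6 (0.987).

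Msln and A3galt2 shared their likest genes in part. Cftr, the chloride channel of duct cells, had r = 0.991 with Msln and 0.988 with A3galt2, and was at 0.178 ± 0.0585, 2.04 ± 1.06 and 0.0580 ± 0.0423 RPKM in HepLPC, PBS and normal livers. Rab25 had r = 0.990 with Msln, and Lyz2 had r = 0.994 with A3galt2. Lyz2 was at 18.0, 20.3 and 21.99 RPKM in HepLPC, 78.4, 173 and 75.2 RPKM in PBS and 19.1, 18.5 and 15.1 RPKM in normal livers, so that PBS replicate 2 stood above the other PBS libraries there too.

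Of 17 listed epithelial transcription and splicing regulators 7 were tested, and 1 rose in PBS against normal livers and fell in HepLPC against PBS livers. That gene was Ehf, an ETS factor of epithelia, at 0.253 ± 0.128 RPKM in HepLPC, 2.58 ± 1.15 RPKM in PBS and 0.0712 ± 0.0315 RPKM in normal livers (1.69 and -1.46, limma adjusted p = 0.0018 and 0.0109), and the fall was lost in 2 of 17 alternatives. Of 20 listed junction and apical genes 15 were tested, 5 rose in PBS against normal livers and 2 fell in HepLPC against PBS livers, Rab25 (-1.30, adjusted p = 0.00435, kept in 17 of 17) and Tspan8, a tetraspanin (-2.11, adjusted p = 0.0407, lost in 12 of 17). Ehf and Rab25 passed the minimum only through the PBS libraries.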

How the data were processed

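Per the file headers, the authors deposited RPKM values for 40154 gene rows in each of 9 libraries, 3 per group. The submitters' processing notes name HISAT2, StringTie and hg19, a human build, although the symbols are those of rat. The build and annotation behind the values are thus uncertain, and no coordinates come from the files. A RefSeq table of the rat assembly GRCr8 matched 23761 rows by symbol or synonym, all 7 genes included, and gave the promoters.

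Groups and replicates came from the titles. Whole reads and library depth were recovered from the RPKM values within 0.01 read, and served only to describe the counts behind a value. Every pair of replicates differed by more than sampling noise. The test was limma 3.58.1 (lmFit and eBayes with a trend, R 4.3.3, 2-sided) on log2(RPKM + 1), which understates the change of low genes. The model had a term for each group over the 9 libraries (6 residual degrees of freedom) and covered 11124 genes of at least 1 RPKM in 3 or more libraries, with Benjamini-Hochberg adjustment over all of them and a threshold of 0.05. The scripts were tested on simulated data.

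The 7 genes, 16 gene lists (8 of cell type markers) and motifs were chosen with earlier results of these data known. Named besides the 7 were the 3 likest genes of each, up to 4 called genes per list and the direct partners in the lists. A few further list genes (such as Wt1, Calb2, Krt5, Dpp4, Itln1, Rspo1, Upk1b and Slc5a2) were named after their values were seen. Alternatives were another pseudocount, no filter, rescaling by the median of ratios, quantile normalization, a replicate block, no trend, a fit of 2 groups alone and leaving out libraries.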

Additional observations from a re-analysis of the deposited data

How the results depend on the processing

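The directions of the 7 genes held in every alternative for PBS against normal and HepLPC against PBS livers. The genes were chosen for those directions in the same libraries, so that outcome was set in advance and supports nothing. For HepLPC against normal livers 1 value turned, that of A3galt2, at -0.15 after quantile normalization against 0.06 as reported, and 0 of the 7 genes were called in any of the 17 alternatives. A3galt2 had no value after rescaling by the median of ratios, where it fell below the minimum level. Normal levels of the 7 genes rest on 3 to 219 reads per group, which limits what can be said of the remainder in HepLPC livers.

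Counts over all genes moved more. For PBS against normal livers 1262 genes were called, and 787 after rescaling by the median of ratios, 714 after quantile normalization, 787 with a replicate block and 3168 without both PBS replicate 1 and HepLPC replicate 2. Leaving out 1 library gave 562 (without PBS replicate 3) to 1809 (without HepLPC replicate 2). For HepLPC against PBS livers 341 were called, and 177, 213 and 198 under the same first 3 settings and 86 when only those groups entered the fit, with 90 (without PBS replicate 3) to 398 (without PBS replicate 1) when 1 library was left out. For HepLPC against normal livers 9 were called, 0 with no filter, 3 after quantile normalization, 1 with a replicate block and 16 without both libraries, with 1 to 14 when 1 was left out. The cause was not tested. The labels do not say that replicate numbers pair the samples, so the block describes only a shared number. Deviations of same-numbered libraries correlated between -0.412 and 0.310. These values cannot show whether samples were paired, because the deviations of some libraries also went with gene length.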

Other observations

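Several epithelial genes of the lists were below the minimum for a test and still stood high in PBS livers. Itgb6, an integrin chain of injured epithelia, averaged 0.191 ± 0.110 RPKM in HepLPC, 2.12 ± 1.10 RPKM in PBS and 0.0557 ± 0.0165 RPKM in normal livers. Lad1, a basement membrane anchor protein, averaged 0.192 ± 0.0315, 2.02 ± 1.47 and 0.0928 ± 0.0307 RPKM in HepLPC, PBS and normal livers. Krt7, a keratin of bile ducts, averaged 0.0499 ± 0.0277, 1.64 ± 2.24 and 0.0426 ± 0.0551 RPKM in the same order, with PBS libraries between 0.128 and 4.21 RPKM. These genes were picked after their values were seen.

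Spidr, a DNA repair scaffold gene, was among the 3 likest genes of both Msln (r = 0.993) and A3galt2 (r = 0.994) over the 9 libraries, although it differed little between groups. It averaged 3.23 ± 0.0930 RPKM in HepLPC, 4.19 ± 0.326 RPKM in PBS and 3.22 ± 0.0741 RPKM in normal livers.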
